A study of Mus musculus with 18 samples.

Results

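Complement genes that fat tissue expresses were followed in visceral fat (white adipose tissue, WAT) of 18 mice. The list held 9 genes, C2, C3, C6, C7, Cfb, Serping1, Masp1, Cd55 and C3ar1, and its members were the probe sets named in the platform's gene table with that single symbol. Of these, 8 genes were found, each with 1 probe set, among 19938 genes. C3 had no probe set named in this way and was not analysed here. The 3 groups, with 1 array per mouse, were 5 STZ, BEZ mice, 6 STZ, SD mice and 7 Con, SD mice. All were wildtype male C57BL/6N mice, 5 to 6 months old. Per the labels, STZ, SD and STZ, BEZ mice were injected with the beta cell toxin streptozotocin (STZ, 65 mg/kg on 5 days, at 10 to 16 weeks of age), and Con, SD mice got citrate buffer in its place. The STZ, BEZ mice then ate chow with 0.25% or 0.5% bezafibrate (BEZ), a fibrate that activates PPAR receptors, for 8 weeks from 2 weeks after STZ, and the other groups ate standard chow (SD). Which mouse had which BEZ content is not in the labels. The study's methods give a lower STZ dose, a single BEZ content and untreated controls.

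Complement is a cascade of proteases and binding proteins in plasma and tissue fluid that tags targets for uptake and pierces membranes. The classical, lectin and alternative routes meet at the cleavage of C3, after which the terminal proteins C5b to C9 build the membrane attack complex, and a set of inhibitors keeps host cells safe. Liver makes most plasma complement, but fat is a known source of some components: adipocytes secrete factor D (adipsin), which cleaves factor B, and the C3 fragment C3a-desArg, also called acylation stimulating protein, has been linked to fat storage. Interferon gamma and NF-kB signals are known inducers of several complement genes.

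C6 was the only member called in either comparison with Con, SD, and it was lower both in diabetic WAT and in diabetic WAT after BEZ. The genes C6 and C7 encode adjoining proteins of the membrane attack complex and lie near each other on chromosome 15, with 1 protein-coding gene, Mroh2b, between them. C6 was called and C7 was not, but whether their differences from Con, SD were unlike each other was not tested. The sequences before their start sites are shown, 5′ to 3′ on the strand of the gene, from the RefSeq table for GRCm38.p6. Their part in the signals was not tested. The C6 stretch is chr15:4726960-4727066 (+ strand), 107 bases up to the outermost annotated start of the gene, and the C7 stretch is chr15:5063774-5064023 (- strand), 250 bases. Capitals mark a match to the GAS motif, an element of interferon gamma response genes.
C6: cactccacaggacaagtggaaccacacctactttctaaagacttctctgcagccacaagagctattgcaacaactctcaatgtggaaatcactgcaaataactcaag
C7: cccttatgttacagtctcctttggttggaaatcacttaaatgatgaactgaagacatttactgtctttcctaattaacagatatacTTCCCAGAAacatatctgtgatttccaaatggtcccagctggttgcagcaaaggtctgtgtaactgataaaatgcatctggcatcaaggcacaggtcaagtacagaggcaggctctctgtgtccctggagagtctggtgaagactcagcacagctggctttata
The RefSeq table held start regions of 4 of the 8 measured members, C6, C7, Cd55 and C3ar1. In the 250 bases before the listed start, on both strands, 4 motifs were searched: GAS (TTCNNNGAA), the interferon element ISRE (GAAA and GAAA with 2 bases between), C/EBP (TTGCNNAA) and NF-kB (GGG and TTTCC with 2 bases between). C7 held 1 GAS match, TTCCCAGAA, whose first base lies 164 bases before the start. C3ar1 held 1 NF-kB match, 14 bases before its start, and C6 and Cd55 held no match to any of them. For these 2 genes an outer start is annotated, so 143 of the 250 bases searched for C6 and all 250 for Cd55 lie inside the annotated gene. Of 32851 such regions, 7.02% held the GAS letters, 2.98% ISRE, 9.56% C/EBP and 1.41% NF-kB. A match is only a run of letters and not a bound site.

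Values are log2 signals, so a difference of 1 is a doubling of signal, and a gene was called when its Benjamini-Hochberg adjusted p over all genes, from limma, was under 0.10. Array medians lay between 6.76 and 6.87. Some arrays carried RNA of neighbouring organs or little adipocyte RNA. The mean of 15 pancreas genes was 8.49 to 10.85 on STZ, BEZ replicates 1 to 4 and 12.81 on STZ, SD replicate 6, and 5.75 to 6.14 elsewhere. That of 17 white adipocyte markers was 12.11 to 12.27 in STZ, BEZ, 9.93 to 12.09 in STZ, SD (lowest on replicates 6, 4 and 3) and 11.46 to 12.24 in Con, SD, so adipocyte markers were present on every array. That of 13 epididymis and testis genes was 5.95 to 7.03 in STZ, BEZ, 5.96 to 11.45 in STZ, SD (highest on replicate 3) and 7.25 to 11.63 in Con, SD (highest on replicates 5 and 3). In bulk tissue, fewer cells of a type and less RNA per cell cannot be told apart. Because STZ, SD replicates 6 and 3 were the lowest arrays of their group for several members, values are also given without them. They were picked by the members' own values, so a rise called without them is not separate support.

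**Figure D1:**
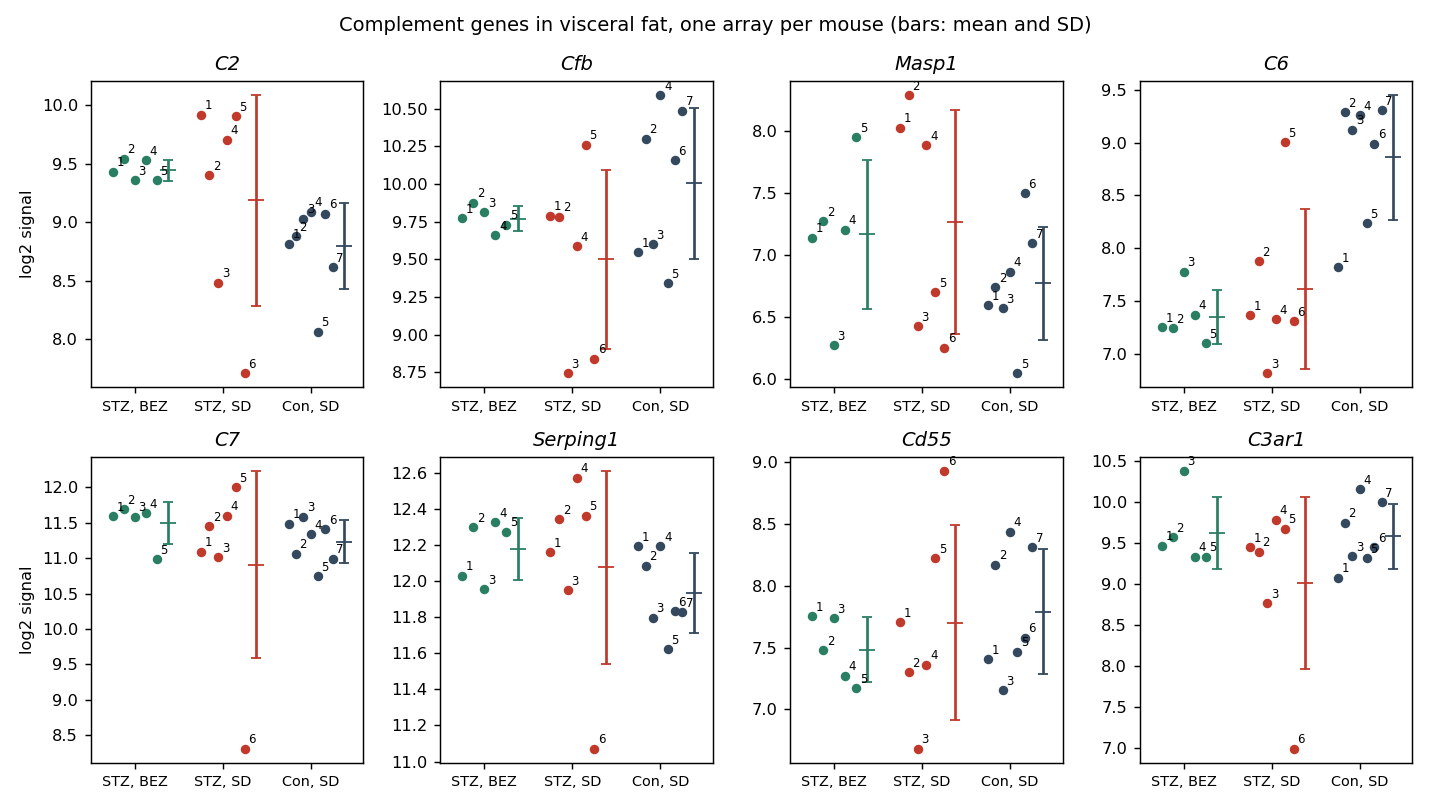
Log2 signal (vertical axis) of the 8 measured complement genes on each array, with the replicate number beside each point, for STZ, BEZ (left), STZ, SD (middle) and Con, SD (right) mice. Bars show the mean and SD of a group. C6 is low in both STZ groups, 7.35 in STZ, BEZ and 7.62 in STZ, SD on average against 8.86 in Con, SD, and STZ, SD replicate 6 lies far below its group in C7 and C3ar1.

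C6 binds C5b and so starts the assembly of the membrane attack complex. Its log2 signal was 7.25, 7.24, 7.78, 7.37 and 7.10 in the STZ, BEZ mice. In STZ, SD mice it ran from 6.82 over a median of 7.34 to 9.01, and in Con, SD mice from 7.82 over a median of 9.12 to 9.30. All STZ, BEZ arrays lay below all Con, SD arrays, whereas STZ, SD replicate 5 (9.01) lay within the Con, SD range and replicate 2 (7.88) just above its lowest array, Con, SD replicate 1. In STZ, SD, C6 fell by 1.24 (SE 0.31, 95% interval -1.89 to -0.60, adjusted p = 0.0274), 2.37-fold, and was below the Con, SD mean in 5 of 6 mice. The exact permutation test (two-sided, 1716 assignments) gave p = 0.0122. In STZ, BEZ against Con, SD, C6 fell by 1.51 (SE 0.32, 95% interval -2.19 to -0.83, adjusted p = 0.0182), 2.85-fold, in 5 of 5 mice. There the exact permutation test (792 assignments) gave p = 0.00253, unadjusted. It adds little to the lack of overlap, which 6.8% of all genes showed in that comparison. Between STZ, BEZ and STZ, SD mice the difference in C6 was -0.27 (SE 0.33, 95% interval -0.97 to 0.44, adjusted p = 0.855), an interval that holds both 0 and further falls.

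Among all genes, 10.3% were called in STZ, SD vs. Con, SD, 4.52% as lower, so 1 called member of 8 is near the background. The corresponding shares in STZ, BEZ vs. Con, SD were 5.95% called and 1.38% called lower. The C6 call in STZ, SD vs. Con, SD held with each of the 18 arrays left out in turn (-1.52 to -1.08, adjusted p 0.00407 to 0.0692). The call in STZ, BEZ vs. Con, SD also held with each array left out (-1.68 to -1.44, adjusted p 0.00893 to 0.0647). Without STZ, SD replicates 3 and 6 the difference between STZ, SD and Con, SD was -0.97 (adjusted p = 0.0633). Without all 5 arrays with pancreas RNA, which leaves 1 STZ, BEZ array, C6 was still called in STZ, SD but not in STZ, BEZ (-1.76, adjusted p = 0.331). The Con, SD arrays with the least epididymis RNA, replicates 2, 4 and 7, had C6 at 9.29, 9.26 and 9.30. Replicates 3 and 5, with the most, had C6 at 9.12 and 8.24, and replicates 1 and 6, which lay between, at 7.82 and 8.99. Liver markers (11 genes) were highest on STZ, BEZ replicate 5, with a mean of 11.09, where C6 was at its group's lowest, 7.10. The mean of 15 progenitor and fibroblast markers was 9.57 to 9.75 in STZ, BEZ, 9.22 to 10.07 in STZ, SD and 9.59 to 10.22 in Con, SD, and 5 of the 15 fell in STZ, SD while 0 rose. That of 12 skeletal muscle genes was 6.35 to 7.32 in STZ, BEZ, 6.33 to 6.56 in STZ, SD and 6.61 to 8.30 in Con, SD. C6 had an r of 0.71 with the progenitor and fibroblast list mean over the 18 arrays, and 0.71 without STZ, SD replicate 6. The part of these cells and organs in the result was not tested.

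C7 binds the growing complex after C6 and lets it insert into membranes. It was at 11.60, 11.70, 11.59, 11.63 and 10.98 in STZ, BEZ mice. In STZ, SD it ran from 8.31 over a median of 11.27 to 12.01, and in Con, SD from 10.75 over a median of 11.34 to 11.59. The groups overlapped, with a single STZ, SD array, replicate 6, far below all others. C7 differed by -0.32 (SE 0.42, adjusted p = 0.721) in STZ, SD vs. Con, SD, but by 0.20 (adjusted p = 0.547) without replicate 6. In STZ, BEZ it was 0.59 above STZ, SD (SE 0.45, adjusted p = 0.729), and 0.07 without that array. Across the 18 arrays C6 and C7 had a Pearson r of 0.18 (permutation p = 0.569) and a Spearman rho of -0.05 (permutation p = 0.857), with r = 0.26 without the 2 arrays farthest in C6. Adjusting over the 2 pairs of neighbours compared left both p-values as they were. Those 2 arrays do not include STZ, SD replicate 6, the array far off in C7, and without that array r was -0.0045. Within the groups that allow it, r was 0.42 over 6 STZ, SD arrays and 0.01 over 7 Con, SD arrays.

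C2, the protease zymogen that with C4b forms the classical and lectin C3 convertase, was at 9.43, 9.54, 9.36, 9.53 and 9.36 in STZ, BEZ, with an SD of 0.09. It ran from 7.71 over a median of 9.56 to 9.92 in STZ, SD and from 8.06 over a median of 8.88 to 9.09 in Con, SD. STZ, SD replicates 1, 2, 4 and 5 (9.40 to 9.92) lay above every Con, SD array, and replicates 3 and 6 (8.48 and 7.71) lay below the Con, SD mean. The mean difference in STZ, SD was 0.39 (SE 0.30, adjusted p = 0.515), higher in 4 of 6 mice and not called. Without replicate 6 it was 0.69 (adjusted p = 0.0631), and without replicates 3 and 6 it was 0.94 (adjusted p = 0.00256), both called. These arrays were picked for low values, C2 among them, so neither call is separate support for a rise. Leaving them out also raised the share of all genes called, to 14.5% without replicate 6 and 19.3% without both. In STZ, BEZ vs. Con, SD the difference was 0.65 (SE 0.31, 95% interval -0.01 to 1.31, adjusted p = 0.280), in 5 of 5 mice, and the groups did not overlap. The exact permutation test gave p = 0.00253, unadjusted, which adds little to the lack of overlap. C6 and C2 were the 2 members without overlap there, against 6.8% of all genes. The spread in that fit is shared by all 3 groups: when only the STZ, BEZ and Con, SD arrays were fitted, C2 rose (adjusted p = 0.0240), and 14.1% of all genes were called. BEZ and SD diets differed by 0.26 in the STZ mice (SE 0.32, adjusted p = 0.856), and by -0.04 without replicate 6.

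Cfb, factor B, is the alternative-route counterpart of C2 and its direct neighbour on chromosome 17, with 0 protein-coding genes between them. Its signal was 9.77, 9.88, 9.81, 9.66 and 9.73 in STZ, BEZ. In STZ, SD it ran from 8.74 over a median of 9.69 to 10.26, and in Con, SD from 9.34 over a median of 10.16 to 10.59. The groups overlapped, and within Con, SD replicates 1, 3 and 5 were at 9.34 to 9.60 and the others at 10.16 to 10.59. Con, SD replicates 5 and 3 had the most epididymis RNA of that group (list means 11.63 and 11.23), with Cfb at 9.34 and 9.60. Replicates 7, 2 and 4 had the least (7.25, 7.35 and 8.02), with Cfb at 10.49, 10.30 and 10.59. Replicates 1 and 6 lay between (8.55 and 9.64), with Cfb at 9.55 and 10.16. Pooling the 18 arrays mixes differences between groups with those between arrays. Over them, Cfb had an r of -0.30 with the epididymis and testis list mean, and -0.46 without STZ, SD replicate 6. With the progenitor and fibroblast list mean r was 0.94, and 0.92 without STZ, SD replicate 6. It was 0.78 with the macrophage, 0.77 with the endothelium and 0.74 with the adipocyte list. Their part was not tested. Cfb differed by -0.50 in STZ, SD (SE 0.24, 95% interval -1.02 to 0.01, adjusted p = 0.260) and by -0.37 without replicate 6. With pancreas and epididymis list means as covariates Cfb fell (-0.63, adjusted p = 0.0465), and 17.5% of all genes were called. In STZ, BEZ it was 0.27 above STZ, SD (SE 0.27, adjusted p = 0.805) and differed by -0.23 from Con, SD (SE 0.26, adjusted p = 0.681). C2 and Cfb had a Pearson r of 0.45 (permutation p = 0.0602) and a Spearman rho of 0.33 (permutation p = 0.188) over 18 arrays. With 2 such pairs compared, the adjusted p-values were 0.120 and 0.376, and r was 0.11 without the 2 arrays farthest in C2. These pooled values mix differences between groups with those between arrays. For deviations from group means, r was 0.73 over the 18 arrays. Within STZ, SD r was 0.89 (6 arrays, with replicates 3 and 6 lowest in both genes), and within Con, SD it was 0.49 (7 arrays). C2 had 4 STZ, SD arrays above every Con, SD array, and Cfb had 0.

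Masp1 encodes proteases of the lectin route by alternative splicing, among them MASP-3, which activates factor D, and 1 probe set does not separate the products. The signal was 7.14, 7.27, 6.27, 7.21 and 7.95 in STZ, BEZ. In STZ, SD it ran from 6.25 over a median of 7.30 to 8.29, and in Con, SD from 6.05 over a median of 6.74 to 7.50. STZ, SD replicates 1, 2 and 4 (7.89 to 8.29) lay above all Con, SD arrays and replicates 3, 5 and 6 (6.25 to 6.70) lay among them. The difference was 0.49 in STZ, SD vs. Con, SD (SE 0.35, adjusted p = 0.481), 0.69 without replicate 6 and 0.95 without replicates 3 and 6 (adjusted p = 0.0660). Those arrays were picked for low values, Masp1 among them, and 19.3% of all genes were called without both. STZ, BEZ differed by -0.10 from STZ, SD (SE 0.38, adjusted p = 0.965) and by 0.39 from Con, SD (SE 0.37, adjusted p = 0.618).

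Serping1 is C1 inhibitor, the serpin that stops C1r, C1s and the MASPs. Its signal was 12.03, 12.30, 11.95, 12.33 and 12.27 in STZ, BEZ. In STZ, SD it ran from 11.07 over a median of 12.25 to 12.57, and in Con, SD from 11.62 over a median of 11.83 to 12.19. The groups overlapped, and STZ, SD replicate 6 was the lowest of all arrays. The difference between STZ, SD and Con, SD was 0.14 (SE 0.19, adjusted p = 0.727), and without replicate 6 it was 0.34 and called (adjusted p = 0.0900). That array was picked for low values, Serping1 among them, and 14.5% of all genes were called without it. STZ, BEZ differed by 0.10 from STZ, SD (SE 0.20, adjusted p = 0.923) and by 0.24 from Con, SD (SE 0.20, adjusted p = 0.554).

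Cd55, or decay accelerating factor, is a membrane inhibitor that takes C3 convertases apart. The mouse also has a close relative, Cd55b, and how far the probe set reads both was not tested. The signal was 7.75, 7.48, 7.74, 7.27 and 7.17 in STZ, BEZ. It ran from 6.68 over a median of 7.53 to 8.93 in STZ, SD and from 7.16 over a median of 7.58 to 8.44 in Con, SD. Unlike the other members, Cd55 was highest on STZ, SD replicate 6, the array on which 11 lymphocyte markers also had their highest mean (8.34, against 5.94 to 6.93 on the rest). It also had the most pancreas RNA (list mean 12.81). Cd55 had an r of 0.63 with the lymphocyte list over the 18 arrays, but 0.33 without that array. With the progenitor and fibroblast list r was 0.39 over the 18 arrays and 0.91 without that array. The part of these cells and of pancreas RNA was not tested. Cd55 differed by -0.09 in STZ, SD (SE 0.30, adjusted p = 0.905) and by -0.34 without replicate 6. In STZ, BEZ the difference was -0.22 from STZ, SD (SE 0.33, adjusted p = 0.884) and -0.31 from Con, SD (SE 0.31, adjusted p = 0.656).

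C3ar1, the receptor by which macrophages and other myeloid cells sense C3a, had signals of 9.47, 9.58, 10.39, 9.34 and 9.33 in STZ, BEZ. In STZ, SD it ran from 6.99 over a median of 9.42 to 9.79, and in Con, SD from 9.08 over a median of 9.45 to 10.16. The group medians were close, and STZ, SD replicate 6 stood alone. The difference was -0.57 in STZ, SD (SE 0.36, adjusted p = 0.414), -0.17 without replicate 6 and -0.01 without replicates 3 and 6. STZ, BEZ was 0.61 above STZ, SD (SE 0.39, adjusted p = 0.661), 0.20 without replicate 6, and 0.03 above Con, SD (SE 0.38, adjusted p = 0.974). The mean of 14 macrophage markers was 8.72 to 9.07 in STZ, BEZ (highest on replicate 3, as C3ar1), 8.25 to 8.99 in STZ, SD (lowest on replicate 6) and 8.40 to 9.16 in Con, SD. On STZ, SD replicates 6 and 3 that mean was 8.25 and 8.31, with C3ar1 at 6.99 and 8.77. Over the 18 arrays C3ar1 had an r of 0.78 with the macrophage, 0.79 with the adipocyte and 0.73 with the progenitor and fibroblast list. Without STZ, SD replicate 6 these were 0.82, 0.47 and 0.70. The part of these cells was not tested.

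**Figure D2:**
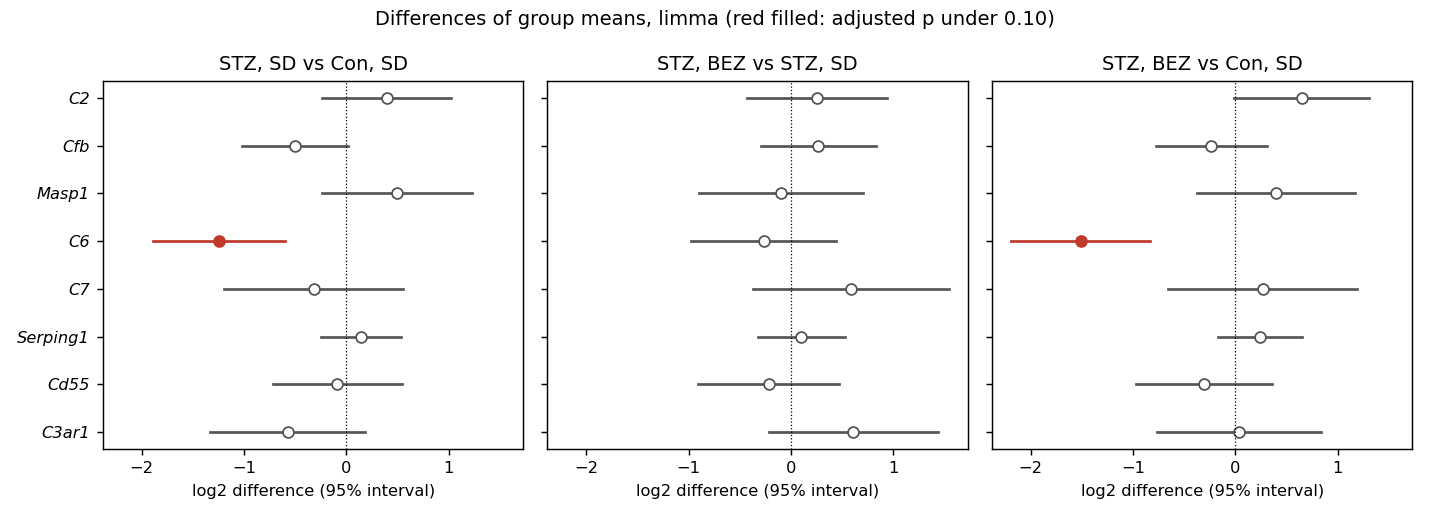
Difference of group means of log2 signal (horizontal axis, point) with its 95% interval for each of the 8 genes, in STZ, SD vs. Con, SD, STZ, BEZ vs. STZ, SD and STZ, BEZ vs. Con, SD. Filled red points have an adjusted p under 0.10. Only C6 does, at -1.24 in the first and -1.51 in the third panel, and all intervals of STZ, BEZ vs. STZ, SD include 0.

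No member was called between STZ, BEZ and STZ, SD mice. In STZ, BEZ vs. STZ, SD, 0 of 8 members were called by limma and 0 by SAM, against 0.707% and 2.25% of all genes, and 0 had an unadjusted p under 0.05. Their differences ran from -0.27 for C6 to 0.61 for C3ar1 with a median of 0.18, beside 0.01 for all genes, and the lowest adjusted p was 0.661. No member was without overlap between these groups, which 1.49% of all genes were. In STZ, SD vs. Con, SD the member median was -0.21 beside -0.03 for all genes, with 3 members above 0 and 5 below, and 0 of 8 without overlap, against 1.62% of genes. The comparisons share the STZ, SD arrays, so their opposite medians are not independent.

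**Figure D3:**
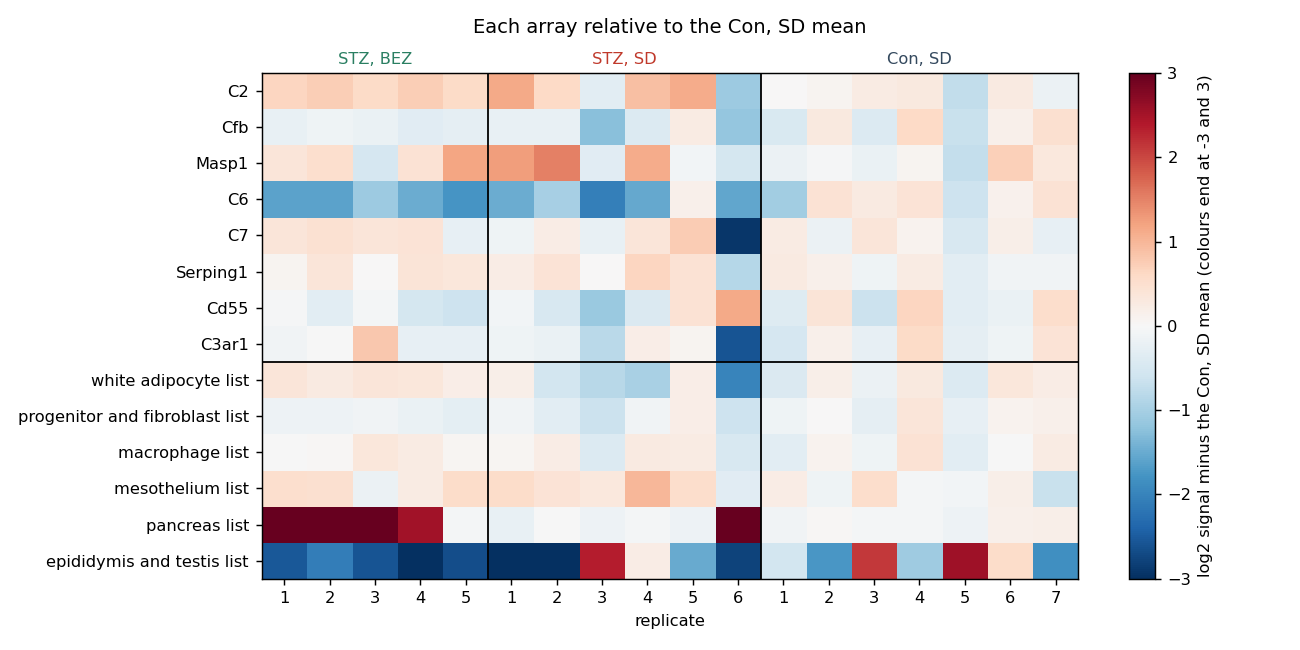
Log2 signal minus the Con, SD mean, as colour, for the 8 complement genes (upper rows) and the mean of 6 marker lists (lower rows) on each array (columns, by replicate), with STZ, BEZ left, STZ, SD in the middle and Con, SD right. C6 is below the Con, SD mean on all 5 STZ, BEZ and 5 of 6 STZ, SD arrays, and STZ, SD replicates 3 and 6 are below it in most genes and in the adipocyte list.

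The genes whose signals followed each member most closely over the 18 arrays were picked as the highest r among 19938 genes. By Pearson r, the nearest were Dusp10, Slc2a13 and Brox for C6 (0.90, 0.89 and 0.88), Col6a5, Slc44a1 and Sult1e1 for C7 (0.95, 0.94 and 0.93) and Bnc2, Podn and Pik3r1 for C2 (0.96, 0.95 and 0.94). They were Sptbn1, Afap1l1 and Gda for Cfb (0.97, 0.96 and 0.96), Me3, Anxa8 and Kctd6 for Masp1 (0.90, 0.90 and 0.89) and Boc, Dpep1 and Cygb for Serping1 (0.95, 0.94 and 0.93). For Cd55 they were Myo1g, Tnc and Etf1 (each 0.93), and for C3ar1 Wwp1, Psap and Lamtor3 (each 0.93). No gene was listed for more than 1 member, but lists this short cannot show that members followed separate patterns. Between members, r over the 18 arrays ran from -0.49 (C7 with Cd55) to 0.84 (C2 with Serping1). Without STZ, SD replicate 6 it ran from -0.36 (C6 with Serping1) to 0.90 (Cfb with Cd55). For C6 with Cfb r was 0.71 with and without that array, but for C7 with C3ar1 it fell from 0.82 to 0.20. The points share arrays, and with STZ, SD replicate 6 left out r fell to 0.81 for Col6a5 with C7 and to 0.81 for Wwp1 with C3ar1, whereas it was 0.92 for Dusp10 with C6 and 0.94 for Bnc2 with C2.

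Of 45 other complement genes, 42 were measured. In STZ, SD vs. Con, SD, 3 rose and 2 fell, with a median of -0.11, so 5 of 42 were called against 10.3% of all genes, which is near the background. None was called between STZ, BEZ and STZ, SD mice, against 0.707% of all genes. The counts by role rest on few genes and stand beside the same shares. Among initiators of the classical and lectin routes 1 of 17 was called. C1ra, the protease that activates C1s, rose by 0.63 (SE 0.20, adjusted p = 0.0719). It averaged 8.21 ± 0.33 in STZ, BEZ, 8.28 ± 0.52 in STZ, SD and 7.65 ± 0.24 in Con, SD (SD, n = 5, 6 and 7), and its call held in 10 of 18 fits with 1 array left out. C1ra has a close copy in the mouse, C1rb, and how far its probe set reads both was not tested. C1qa, C1qb and C1qc, the macrophage-made chains of C1q, differed by -0.24, -0.23 and -0.18 in STZ, SD, and C4b by -0.06 (adjusted p 0.406 to 0.937). The C1q chains differed by 0.26, 0.32 and 0.31 in STZ, BEZ vs. STZ, SD (adjusted p 0.506 to 0.670).

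Among 5 further terminal components, C8a fell by 0.27 in STZ, SD (SE 0.08, adjusted p = 0.0700) and 0 rose. Of all genes, 10.3% were called there and 4.52% called lower. All 5 differences were negative, from -0.33 to -0.20, with Hc, which encodes C5, at -0.20 (adjusted p = 0.643). Signals were low: in STZ, SD and Con, SD, C8a averaged 5.25 and 5.51, C8b 5.54 and 5.86, C9 4.87 and 5.19 and Hc 5.60 and 5.80. These lie below the array medians of 6.76 to 6.87, and a filter at log2 6 dropped C8a. Only C8g, at 6.73 and 6.93, was near the medians. The 11 measured liver genes had a median difference of -0.91 in that comparison, and their part was not tested. The C8a call held in 11 of 18 fits with 1 array left out. It was lost with quantile scaling or array medians set to 0, where all 5 differences stayed below 0, with only the groups compared, without STZ, SD replicates 3 and 6 and without the 5 arrays with pancreas RNA.

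Of 12 measured regulators, 2 rose and 1 fell in STZ, SD, beside 10.3% of all genes called and 4.52% called lower. Cd59a, the membrane protein that keeps C9 from joining the attack complex, fell by 0.76 (SE 0.18, adjusted p = 0.0247). It averaged 11.18 ± 0.32 in STZ, BEZ, 10.58 ± 0.39 in STZ, SD and 11.34 ± 0.33 in Con, SD (SD, n = 5, 6 and 7). STZ, BEZ lay 0.60 above STZ, SD (SE 0.20, adjusted p = 0.272). Its copy Cd59b, which may share probes, differed by -0.44 in STZ, SD (adjusted p = 0.229) and by 0.76 in STZ, BEZ vs. STZ, SD (adjusted p = 0.193). Cd46, a cofactor for C3b cleavage that in mice is found mainly in sperm cells, rose by 0.68 (SE 0.19, adjusted p = 0.0430), and Csmd1, a large membrane regulator, rose by 0.26 (SE 0.09, adjusted p = 0.0979). The 13 measured epididymis and testis genes had a median difference of -1.28 in that comparison (-2.55 to 0.11), with wide spread between arrays, and 0 were called. Their part in the Cd46 result was not tested. The Cd59a call held with each array left out, the Cd46 call in 17 of 18 such fits and the Csmd1 call in 6 of 18. Of the receptors 0 of 7 were called in any comparison, and C5ar1, the receptor for C5a, differed by -0.23 in STZ, SD and by 0.57 in STZ, BEZ vs. STZ, SD (adjusted p = 0.664 and 0.488). Properdin (Cfp), which steadies the alternative convertase, was not called either, at -0.53 in STZ, SD (adjusted p = 0.153) and 0.80 in STZ, BEZ vs. STZ, SD (adjusted p = 0.181).

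**Figure D4:**
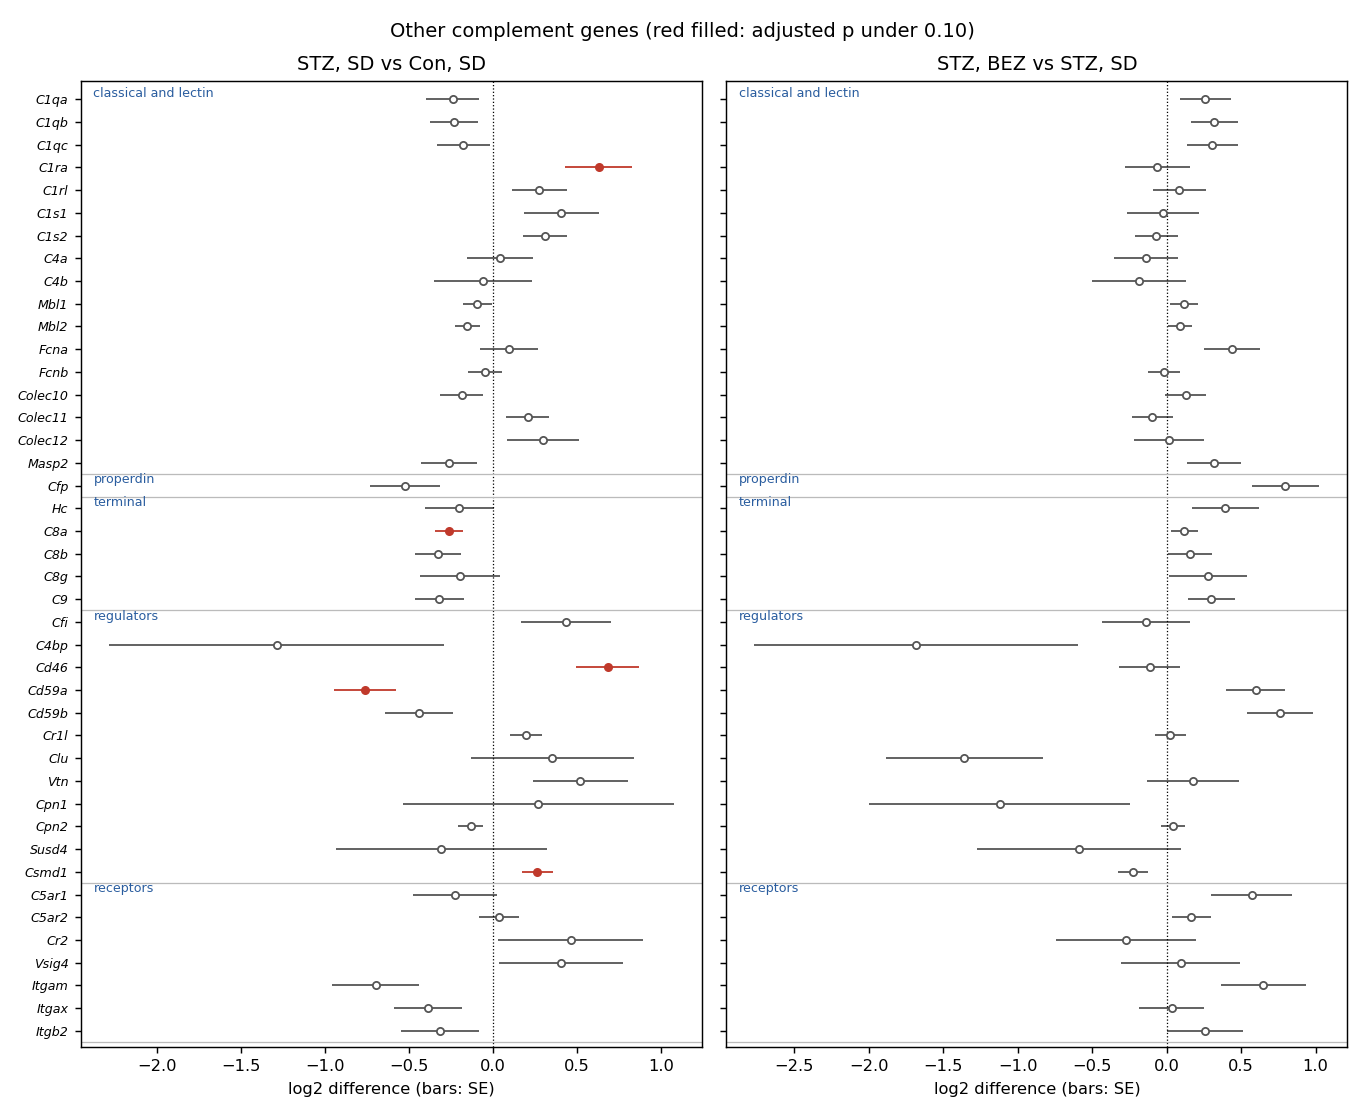
Difference of group means of log2 signal (horizontal axis) with its SE for 42 other complement genes, by role, in STZ, SD vs. Con, SD (left) and STZ, BEZ vs. STZ, SD (right). Filled red points, with an adjusted p under 0.10, are C1ra, Cd46 and Csmd1 above 0 and C8a and Cd59a below 0 on the left, and none on the right.

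Of 14 measured inducers of complement genes, Irf1, a transcription factor of the interferon response, was the only one called in STZ, SD vs. Con, SD, where 10.3% of all genes were. It rose by 0.42 (SE 0.12, adjusted p = 0.0505), and by 0.44 in STZ, BEZ vs. Con, SD (SE 0.13, adjusted p = 0.0678). The Irf1 call in STZ, SD held in 17 of 18 fits with 1 array left out, all but that without STZ, SD replicate 1 (adjusted p = 0.102), and was lost with only the groups compared (adjusted p = 0.145) and without the 5 arrays with pancreas RNA. In STZ, BEZ vs. Con, SD it held in 11 of 18 such fits and was lost with quantile scaling, with covariates and without the 5 arrays with pancreas RNA. Ifng and Il6 differed by 0.10 and 0.02 in STZ, SD, and Tnf by -0.31 (adjusted p = 0.347, 0.925 and 0.226). In STZ, SD and Con, SD, Ifng averaged 5.95 and 5.84, Il6 3.94 and 3.93 and Tnf 6.13 and 6.43. All lie below the array medians of 6.76 to 6.87, so little can be read from the small differences of Ifng and Il6. Ppara, the receptor that fibrates activate, rose by 0.90 in STZ, BEZ vs. Con, SD (SE 0.17, adjusted p = 0.00969). Without BEZ it already differed by 0.42 in STZ, SD vs. Con, SD (SE 0.16, adjusted p = 0.126). That difference was not called, except by SAM, with the filter at log2 6, without STZ, SD replicates 3 and 6 and in 2 of 18 fits with 1 array left out. Ppara differed by 0.48 in STZ, BEZ vs. STZ, SD (SE 0.17, adjusted p = 0.320), and 0 of 14 inducers were called there, against 0.707% of all genes. In STZ, BEZ vs. Con, SD, 2 of 14 were called, against 5.95% of all genes.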

How the data were processed

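Total RNA of visceral fat was hybridised to Affymetrix Mouse Gene 1.0 ST arrays, 1 per mouse. The authors summarised the arrays by RMA in Expression Console 1.2 per the labels, and the deposited values are log2 signals of 35556 probe sets in 18 columns, of which 0 were left out. A single gene symbol is given for 21789 probe sets, several for 1621 and none for 12146. For each symbol the probe set with the highest mean was kept, which left 19938 genes, all fitted without a filter on low values. Array correlations were 0.903 to 0.991, and no array repeated another. The number of arrays limits the precision.

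All groups were fitted together with limma 3.58.1 in R 4.3.3 (15 residual and 2.44 prior degrees of freedom), p-values were adjusted by Benjamini-Hochberg over all genes, and calls were made at an adjusted p under 0.10, the 10% rate that the study used with SAM. The script was tested on simulated data. Members and lists were chosen with earlier results of these data known. Named genes are the members, called genes of the other complement and inducer lists, a few fixed ones (not all are reported here) and the 3 genes nearest each member. The alternatives tried were a threshold of 0.05, a fold of 1.5, all probe sets, their mean, a filter at log2 6, quantile scaling, median centring, a variance trend with robust fit, array weights, fits of 2 groups, a replicate block, the pancreas and epididymis list means as covariates, SAM with 100 permutations and each array left out. Fits without STZ, SD replicates 3 and 6 and without 5 arrays with pancreas RNA were chosen after seeing the data.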

Additional observations from a re-analysis of the deposited data

Results flagged for a closer look

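Of 45 sets of values searched, 4 held an array far from the rest of its group, by Dixon's test at the 95% level, which chance alone flags in about 1 of 20 sets. C7 was at 8.31 on STZ, SD replicate 6, the array with the most pancreas RNA, against 11.01 to 12.01 on the other arrays of the group. C3ar1 was at 6.99 on the same array, against 8.77 to 9.79. C7 was also at 10.98 on STZ, BEZ replicate 5, against 11.59 to 11.70, and C3ar1 at 10.39 on STZ, BEZ replicate 3, against 9.33 to 9.58.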

How the results depend on the processing

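The C6 call in STZ, SD vs. Con, SD was lost with the replicate block, where 0 members were called (C6 -1.17, adjusted p = 0.124). Replicate numbers did not pair the arrays: over 16 pairs the correlation of deviations was -0.36 to 0.70, with a median of -0.01. The block changed no other member's call, and among other named genes it ended those of Cd59a (adjusted p = 0.136), C8a and Csmd1 in STZ, SD vs. Con, SD. In STZ, SD vs. Con, SD, 2 members were called with array weights (with C2) and 2 with covariates, 1 to 3 with 1 array left out (3 without STZ, SD replicate 6, with C2 and Serping1) and 4 without replicates 3 and 6 (with C2, Masp1 and Serping1). Those fits called more of all genes too: 16.9% with array weights, 17.5% with covariates, 14.5% without replicate 6 and 19.3% without replicates 3 and 6, against 10.3%, and 3.41% with the block. In STZ, BEZ vs. STZ, SD, 3 were called with covariates (C7 1.12 and C3ar1 0.95 higher, Cd55 -0.72 lower), where 2194 of 19938 genes were against 141, and 0 with any 1 array left out. C2 joined C6 in STZ, BEZ vs. Con, SD, giving 2, with array weights, with only these groups, by SAM and without STZ, SD replicates 3 and 6 (19.1%, 14.1%, 24.8% and 14.7% of all genes, against 5.95%). There 5 were called with covariates (C2, C7 and Serping1 higher, C6 and Cd55 lower; 18.6% of all genes), 1 to 2 with 1 array left out (2, with C2, without STZ, SD replicate 6) and 0 without the 5 arrays with pancreas RNA (1.4% of all genes), and the cause was not tested. C1ra and Csmd1 lost their calls in STZ, SD vs. Con, SD with only the groups compared, Csmd1 also with medians set to 0, a variance trend, covariates and without the 5 arrays with pancreas RNA, and Ppara lost its call in STZ, BEZ vs. Con, SD without those 5 arrays (adjusted p = 0.174). Member counts did not differ from 1, 0 and 1 under the other alternatives.

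Directions of uncalled differences turned as follows, and the cause was not tested. In STZ, SD vs. Con, SD, C7 was 0.22 with array weights, 0.0186 with covariates, 0.20 without STZ, SD replicate 6, 0.31 without replicates 3 and 6 and 0.20 without the 5 arrays with pancreas RNA (-0.54 to 0.20 with 1 array left out), and Cd55 was -0.34 to 0.12 with 1 array left out. In STZ, BEZ vs. STZ, SD with 1 array left out, C2 was -0.0392 to 0.40, C6 -0.43 to 0.0106, Serping1 -0.10 to 0.20, Masp1 -0.30 to 0.13 and Cd55 -0.42 to 0.0283. With array weights C2 was -0.15 and Serping1 -0.14. Serping1 was -0.0048 with quantile scaling and -0.0126 with the replicate block, and Masp1 was 0.0136 with covariates. Without STZ, SD replicates 3 and 6, C2 was -0.29, C7 -0.0385, Cfb -0.0856 and Serping1 -0.18. Without the 5 arrays with pancreas RNA, C2 was -0.12, C7 -0.45, Serping1 -0.0039, Masp1 0.48 and C3ar1 -0.0811. In STZ, BEZ vs. Con, SD, C7 was -0.0197 and C3ar1 -0.10 with the replicate block, and -0.25 each without the 5 arrays with pancreas RNA. C3ar1 there was -0.16 to 0.13 with 1 array left out. The lone STZ, BEZ array that remains without the 5 arrays with pancreas RNA is assumed to vary like the other groups.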
